A study of Rattus norvegicus with 6 samples.

Results

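Cytosolic ribosomal protein genes encode the proteins that, with ribosomal RNA, make up the large and small subunits of the ribosome outside mitochondria. Members were taken from the gene symbols of the count files: symbols made of Rpl or Rps and a digit, or Rplp0, Rplp1 and Rplp2, without the Rps6k kinases, and a mean over the 6 libraries of 100 or more counts. Of 21857 symbols, 105 fitted the name pattern and 78 of these reached the mean of 100 counts. The 78 members were 39 core genes of the large subunit, 24 core genes of the small subunit, 6 paralogues that have their own gene beside a core gene, 4 symbols named as a copy of a core gene (such as Rps10l1), 4 symbols named as a pseudogene (such as Rps21-ps1) and Rps19bp1, which fits the pattern by name but encodes a binding protein and not a ribosomal protein. The rule used names and mean counts and not the difference between the groups, but it was set with earlier results of these data known.

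The cells were neonatal rat cardiac fibroblasts (NRCFs), the matrix-producing cells of the heart, cultured from the hearts of rats no older than 3 days. The study describes the rats as Sprague-Dawley, and the strain label reads Noway. One group received the empty plasmid (Vector, genotype label WT) and the other a plasmid carrying the rat coding sequence of FTO, an enzyme that removes the m6A mark from RNA (genotype label FTO overexpression). Each group had 3 RNA-seq libraries, and no source says whether these came from separate cultures or animals, so the p-values below measure only the spread between these libraries.

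Ribosomal protein mRNAs are among the most abundant mRNAs of a growing cell, and most of their proteins are needed in equal amounts in each ribosome. Most of these mRNAs start with a run of pyrimidines, the terminal oligopyrimidine (TOP) sequence, through which the kinase mTORC1 and the RNA-binding protein LARP1 control their translation and stability. A few ribosomal proteins have paralogues that can take their place in the ribosome or that work in its assembly.

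Libraries held between 13178952 (FTO replicate 2) and 17857999 (FTO replicate 3) counts, and scaling factors lay between 0.995 and 1.005. Fto itself was at 87.8, 89.6 and 87.4 CPM (counts per 1000000 counts of the library, after scaling) in Vector replicates 1, 2 and 3 and at 93.2, 90.8 and 92.9 CPM in the libraries labelled FTO (log2 fold change 0.06, SE 0.0469, adjusted p = 0.239), so these libraries are named by their label throughout. All 8 fibroblast markers examined changed without overlap, as did 70.3% of all genes tested. Of the 8, 5 were higher and 3 lower. Of all genes tested, 33.2% were higher and 32.8% lower, the background for the other markers too. Dcn (decorin) went from 47.0 ± 1.57 to 5610.5 ± 221 CPM, and Col3a1 (a collagen) from 10699 ± 90.01 to 3338 ± 363 CPM (SD, n = 3). The sum of the 8 markers joins these opposite changes. It was 12710 to 12860 CPM in the Vector group and 12410 to 12910 CPM in the libraries labelled FTO. All 8 macrophage markers were lower, with a summed 684 to 702 CPM against 173 to 192 CPM, and C1qb went from 19.7 CPM to 0.0858 CPM. Of the cardiomyocyte markers 7 of 8 were higher (1513 to 1546 CPM against 2280 to 2324 CPM), of the mural markers 4 of 6 tested were lower (1504 to 1563 CPM against 844 to 945 CPM), and of the endothelial markers 3 of 5 tested were higher, although their sum was 112 to 117 CPM against 102 to 111 CPM and Emcn was at 0 in every Vector library. In bulk RNA, fewer cells of a type and less RNA per cell cannot be told apart, and the part of these markers in the ribosomal protein values was not tested.

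Ribosomal protein mRNAs moved little between the groups, and more of them were lower than higher in the libraries labelled FTO. Of the 78 members, 46 (59%) passed the test at an adjusted p under 0.05, against 65.9% of the 12941 genes tested. The direction was uneven, with 14 members higher (17.9%, against 33.2% of all genes tested) and 32 lower (41%, against 32.8%). No member reached a 2-fold change, against 19.6% of all genes tested with a 2-fold change and an unadjusted p under 0.05. The fitted log2 fold changes of the members ran from -0.66 to 0.50 with a median of -0.09, where the median of all genes tested was 0.00. The median size of the change, without its sign, was 0.148 on the log2 scale for the members, 0.363 for all genes tested and 0.313 for genes with a mean of at least 100 counts.

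Against a change of at least 1.2-fold (glmTreat of edgeR), 9 members passed (11.5%, against 43.8% of all genes tested). Of these, Rpl41, Rpl7l1 and Rpl22l1 were higher (21.9% of all genes tested were) and 6 were lower (21.9%), among them Rpl12, Rpl10, Rpl14, Rpl15 and Rps10l1. In 41 members (52.6%) no Vector library lay within the CPM range of the libraries labelled FTO or the reverse, against 70.3% of all genes tested. In 11 of these every library labelled FTO lay above the Vector libraries (35.5% of all genes tested), and in 30 every one lay below (34.8%).

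**Figure D1:**
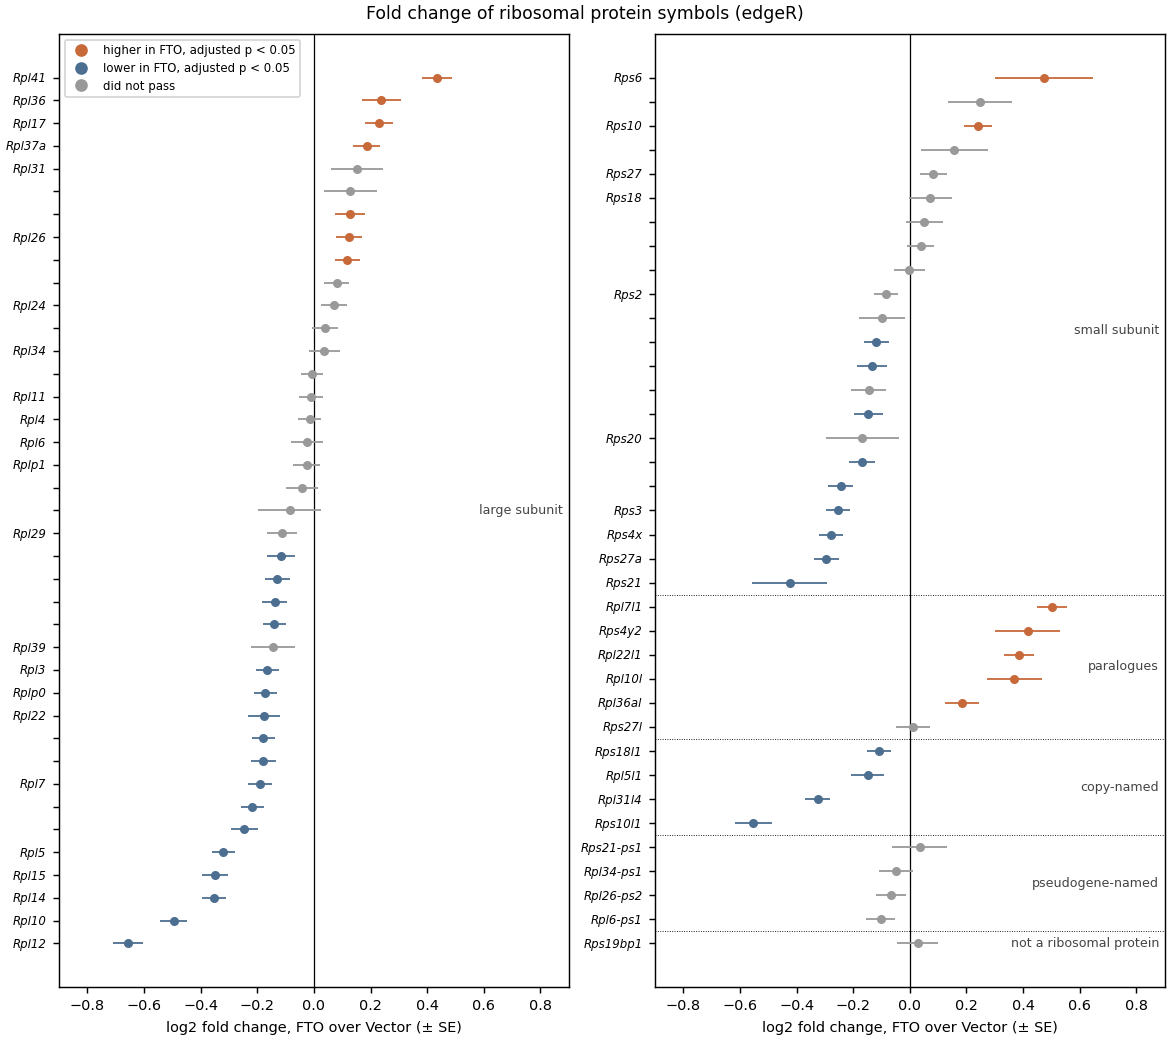
Fitted log2 fold change of 76 of the 78 member symbols, libraries labelled FTO over Vector (x axis, log2 units, bars ± SE), ordered within class, with the symbols described in the text printed. Orange points are higher and blue points lower at an adjusted p under 0.05, grey points did not pass. Most core genes lie between -0.4 and 0.2, and all 6 paralogues lie to the right of 0, 5 of them with a call.

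The ribosomal protein genes also shared a pattern between the libraries labelled FTO that the rule did not use. Replicate 2 had the highest CPM of the 3 libraries labelled FTO for 69 of 78 members (88.5%), where it was the highest for 37.5% of all genes tested. Replicate 3 was the lowest for 64 members (82.1%), against 37.1% of all genes tested. In the Vector group the order was mixed, and the library most often lowest, replicate 1, was so for 36 members (46.2%). Replicate 2 was also the library with the fewest counts and replicate 3 the one with the most, and the part of depth in this order was not tested. Members took 2.92%, 2.92% and 2.90% of all counts in Vector replicates 1 to 3 and 2.65%, 2.81% and 2.55% in the libraries labelled FTO. Without FTO replicate 2, 49 members passed (12 higher, 37 lower), and without FTO replicate 3, 43 passed (15 higher, 28 lower). Of all genes, 8719 passed without FTO replicate 3 (4337 higher, 4382 lower), against 8531 with all 6 libraries.

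**Figure D2:**
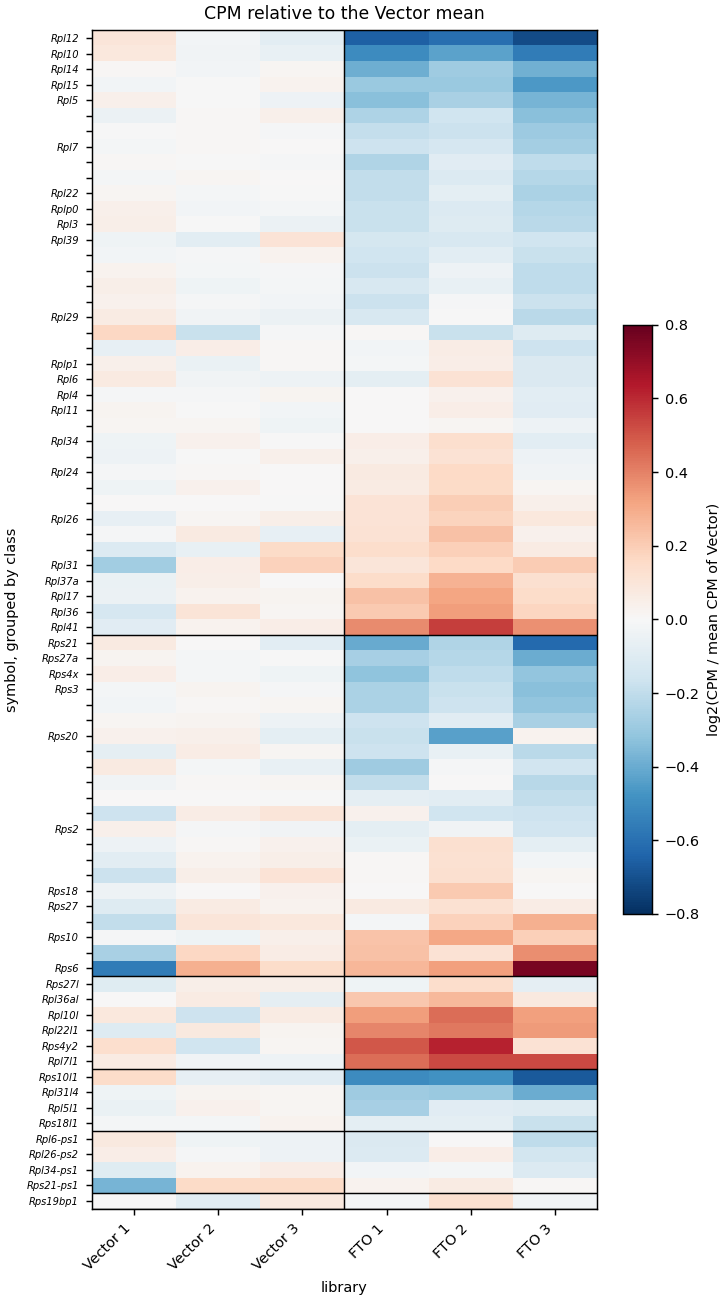
CPM of 76 of the 78 members in each of the 6 libraries, as log2 of the ratio to the mean of the 3 Vector libraries (colour scale, log2 units), with members grouped by class and ordered by fold change and the symbols described in the text printed. Most blue rows are palest in FTO 2 and darkest in FTO 3, the library order that 69 and 64 of the 78 members share.

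Summed over the 39 core genes of the large subunit, the Vector libraries held 18534, 18317 and 18268 CPM and the libraries labelled FTO 16812, 17742 and 16116 CPM. The means were 18373 ± 142 and 16890 ± 816 CPM (SD, n = 3), a log2 ratio of -0.12. For the 24 core genes of the small subunit the sums were 8065, 8096 and 8035 CPM against 7018, 7448 and 6767 CPM, with means of 8065 ± 30.3 and 7078 ± 344 CPM and a log2 ratio of -0.19. In both subunits every library labelled FTO lay below every Vector library. The log2 ratio of the large to the small sum was 1.2, 1.18 and 1.19 in the Vector libraries and 1.26, 1.25 and 1.25 in the libraries labelled FTO. The 6 paralogues went the other way, from 398, 415 and 409 CPM to 486, 518 and 468 CPM, a log2 ratio of 0.27. No test was run on these sums, since they are scores over chosen genes.

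**Figure D3:**
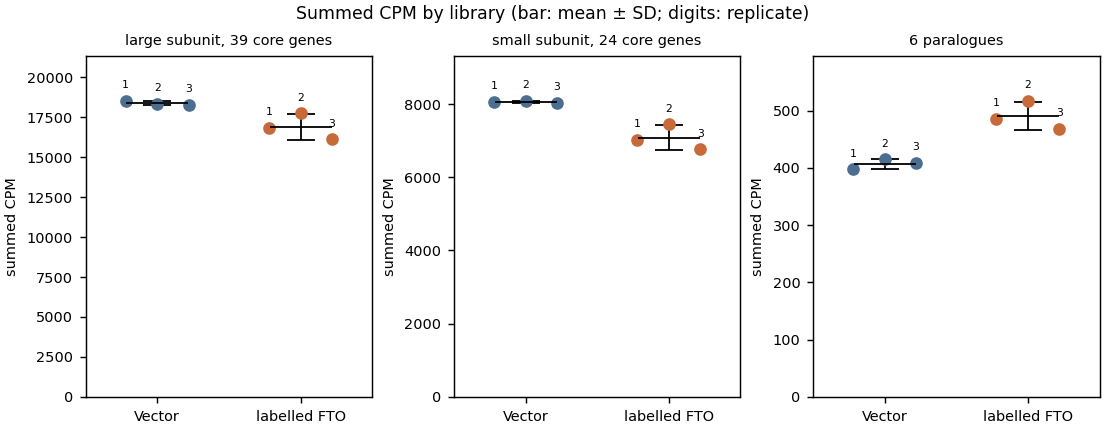
Summed CPM (y axes, starting at 0) of the 39 core large subunit genes, the 24 core small subunit genes and the 6 paralogues in each library, with the replicate number above each point and the mean ± SD of 3 libraries. Both core sums are lower and the paralogue sum is higher in the libraries labelled FTO, among which replicate 2 is the highest in each panel.

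The large subunit carries the peptidyl transferase centre, the exit tunnel of the new protein and the stalk that recruits translation factors. Of its 39 core members, 7 were higher (17.9%, against 33.2% of all genes tested) and 17 were lower (43.6%, against 32.8%). Another 15 did not pass, and the median log2 fold change was -0.09. Rpl12, which sits at the base of the stalk, had the largest decrease. It was at 212, 196 and 187 CPM in Vector replicates 1, 2 and 3 and at 126, 130.3 and 121 CPM in the libraries labelled FTO. All 3 libraries labelled FTO lay far below the Vector range, with a log2 fold change of -0.66 (SE 0.0528, adjusted p = 2.869e-08) and a fold of 0.634 (95% interval 0.586 to 0.685).

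Rpl10, an X-linked gene whose protein joins the subunit late, next to the peptidyl transferase centre, was at 1022, 948 and 927 CPM in the Vector libraries and at 682, 716 and 656 CPM in those labelled FTO. The groups did not overlap, and the fold was 0.709 (95% interval 0.662 to 0.760, log2 fold change -0.50, SE 0.0466, adjusted p = 1.868e-07). Rpl14 and Rpl15, structural proteins of the subunit, fell by like amounts without overlap. Rpl14 was at 530.0, 518 and 531 CPM against 402, 432 and 403 CPM (log2 fold change -0.35, SE 0.0413, adjusted p = 2.257e-06). Rpl15 was at 647, 656 and 669.7 CPM against 535, 535 and 479 CPM (log2 fold change -0.35, SE 0.0464, adjusted p = 8.256e-06).

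Rpl5 and Rpl11 form a particle with 5S ribosomal RNA, and off the ribosome they bind the p53 regulator MDM2. Rpl5 was at 937, 912 and 889 CPM in the Vector libraries and at 723, 764 and 706 CPM in the libraries labelled FTO. It fell without overlap (log2 fold change -0.32, SE 0.0416, adjusted p = 6.831e-06). Its partner Rpl11 was at 513, 502 and 497 CPM against 506, 522 and 473 CPM, and the groups overlapped (log2 fold change -0.01, adjusted p = 0.842, 95% interval of the fold 0.931 to 1.06). The difference between the changes of these genes was not tested.

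Of the stalk itself, Rplp0, the scaffold of the stalk and the member with the highest count, was at 2380.2, 2279 and 2297 CPM in the Vector libraries. It was at 2046, 2149 and 1983 CPM in those labelled FTO, without overlap (log2 fold change -0.17, SE 0.0406, adjusted p = 0.00172). Rplp1, which binds this scaffold, was at 216, 202 and 211 CPM against 207, 217 and 194 CPM with overlap (log2 fold change -0.03, adjusted p = 0.659). Rplp2, its partner, had a count of 0 in 4 libraries and 1 count in each of the other two, too few to test. Rpl3, a core protein near the catalytic centre, fell from 1460 ± 46.5 to 1303 ± 51.1 CPM (SD, n = 3, log2 fold change -0.16, SE 0.0417, adjusted p = 0.00283).

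Fewer large subunit genes were higher. Rpl41, which encodes a very short peptide at the interface of the subunits, was at 433, 471 and 479 CPM against 599.8, 676 and 594 CPM. It rose in each library labelled FTO over every Vector library, with a fold of 1.35 (95% interval 1.25 to 1.47, log2 fold change 0.44, SE 0.054, adjusted p = 4.159e-06). Rpl17 and Rpl26, which surround the mouth of the exit tunnel, were also higher. Rpl17 was at 149, 157 and 156 CPM against 181, 191 and 170.2 CPM (log2 fold change 0.23, SE 0.0494, adjusted p = 7.462e-04). Rpl26 was at 169, 178 and 182 CPM against 190.2, 199.5 and 187 CPM (log2 fold change 0.12, SE 0.0459, adjusted p = 0.0283), a call that was lost without Vector replicate 1, Vector replicate 2, FTO replicate 1 or FTO replicate 2 and with DESeq2 (adjusted p = 0.0568).

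Rpl36 and Rpl37a completed the 5 genes of the large subunit with the largest increase among those without overlap. Rpl36 was at 52.7 ± 4.35 CPM against 62.3 ± 3.64 CPM (log2 fold change 0.24, SE 0.0684, adjusted p = 0.00666). Rpl37a was at 271 ± 9.01 CPM against 309 ± 17.8 CPM (log2 fold change 0.19, SE 0.0478, adjusted p = 0.00295). Abundant large subunit genes without a call included Rpl4, which lines the exit tunnel, at 1112, 1111 and 1134 CPM against 1121, 1145 and 1056 CPM (log2 fold change -0.01, adjusted p = 0.761). Rpl24 (log2 fold change 0.07, adjusted p = 0.19) passed without FTO replicate 3 (adjusted p = 0.0106), and Rpl29 (-0.11, adjusted p = 0.0692) passed without FTO replicate 2 (adjusted p = 0.00114).

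The small subunit binds the mRNA and decodes it. Of its 24 core members, 2 were higher (8.33%, against 33.2% of all genes tested) and 11 were lower (45.8%, against 32.8%). Another 11 did not pass, and the median log2 fold change was -0.13. Rps27a, translated as a fusion with ubiquitin, was at 794, 776 and 780.0 CPM against 652, 669 and 595 CPM without overlap (log2 fold change -0.29, SE 0.0455, adjusted p = 3.975e-05). Rps4x, an X-linked gene, was at 814, 779 and 767 CPM against 630.0, 683 and 633 CPM, also without overlap (log2 fold change -0.28, SE 0.0434, adjusted p = 4.419e-05).

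Rps3 lies at the site where mRNA enters the subunit. Rps3 was at 857, 877 and 860.4 CPM against 725, 766 and 687 CPM (log2 fold change -0.25, SE 0.0434, adjusted p = 1.091e-04). The groups did not overlap. Rps2, which also lies at the entry site, was at 786, 758 and 748 CPM against 725, 749.5 and 686 CPM with overlap (log2 fold change -0.09, adjusted p = 0.0885), and it passed without FTO replicate 2 (adjusted p = 0.0117).

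Rps10 and Rps6 were the small subunit genes that rose. Rps10 was at 96.2, 94.7 and 99.8 CPM against 113, 120.1 and 111 CPM without overlap (log2 fold change 0.24, SE 0.0495, adjusted p = 5.231e-04), a direction that turned when a copy symbol was added, as given below. Rps6, the classical substrate of the S6 kinases, was at 8.999, 16.2 and 14.7 CPM against 16.0, 16.7 and 22.5 CPM. Its groups overlapped, Vector replicate 1 was the lowest library and FTO replicate 3 the highest, and the mean count was only 238 (log2 fold change 0.47, SE 0.174, adjusted p = 0.0258). The call on Rps6 was lost without Vector replicate 1 or FTO replicate 3 and with DESeq2 (adjusted p = 0.159).

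By count level, a split chosen after the values were seen, 7 of the 50 core members with a mean of at least 1000 counts were higher (14%, against 39.8% of the 3112 genes tested at that level) and 26 were lower (52%, against 38%). Of the 13 core members under 1000 counts, 2 were higher and 2 lower (15.4% each, against 33% and 32.4% of the 6930 genes tested with a mean of 100 to under 1000 counts). At the edge of the member rule, Rps21 and Rps20 had mean counts of 116 and 144, and Rps15-ps2 and Rps14, just outside it, had mean counts of 96.8 and 95.7.

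The letters around the members' transcription start sites were searched for short pyrimidine spellings of the kind found at the start of TOP mRNAs. The spellings were fixed and could lie anywhere in the window. A match therefore need not lie at the start, as at Rpl5, and pyrimidine runs spelled otherwise were missed, as at Rpl14. The matches thus do not show which members have TOP mRNAs. Promoter sequences of RefSeq (assembly GRCr8) were found for 55 of the 78 members. In the 30 bases from 10 before to 20 after the annotated start, on the strand of the transcript, the run CTTTT or its variants, spelled CTTTC or else CTCTT or else CCTTT, occurred in 33 of 49 core members (67.3%). The same letters occurred in 10.5% of 27457 promoters and in 8.63% of the promoters of genes tested here. Sequences are shown for the large subunit genes with the largest decrease among those with a promoter sequence (Rpl12, Rpl10, Rpl14 and Rpl5). They are also shown for 2 genes that were higher (Rpl41 and Rpl37a), for an abundant gene without a call (Rpl4), and for Rpl22 beside its paralogue Rpl22l1. None is shown for the small subunit. Capitals mark every match, and overlapping matches run together.
Rpl12 (chr3:36661930-36661959, plus strand): aacatccgtCTTTTcggCTTTCggttcgga
Rpl10 (chrX:157205840-157205869, plus strand): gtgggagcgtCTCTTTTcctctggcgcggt
Rpl14 (chr8:129163610-129163639, plus strand): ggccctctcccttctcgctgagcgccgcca
Rpl5 (chr14:1995206-1995235, minus strand): CTTTCccacgtcgcttgcgtcctggaggtg
Rpl41 (chr7:1563478-1563507, minus strand): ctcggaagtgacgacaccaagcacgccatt
Rpl37a (chr9:81748081-81748110, plus strand): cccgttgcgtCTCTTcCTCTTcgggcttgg
Rpl4 (chr8:73566467-73566496, plus strand): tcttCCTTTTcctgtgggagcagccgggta
Rpl22 (chr5:168117951-168117980, plus strand): gcgcccccctcCCTTTCtgcctcctctgcc
Rpl22l1 (chr2:113683186-113683215, plus strand): gtggatatccggttccgagttgcgcagcgc

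Matches were found at 15 of the 21 core genes that were lower (71.4%), at 3 of the 8 that were higher (37.5%) and at 15 of the 20 that did not pass (75%). No test was run of the difference between these shares, and the annotated start need not be the start used in these cells. The window of Rpl12 held 2 separate matches. That of Rpl14 held none of these spellings, although its printed letters hold a run of pyrimidines spelled otherwise. In the 300 bases from 250 before to 50 after the start, on both strands, CCGGAAG, a sequence bound by ETS factors, occurred in 34.7% of the core members (9.22% of all promoters, 17.2% of the promoters of genes tested). GGGCGG, the core letters of SP1 sites, occurred in 55.1% of the core members (34.9% and 62.7%), and AAGATGGC, a form of the YY1 site, in 6.12% (3.44% and 5.57%). These matches describe letters and not binding.

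Many ribosomal protein genes have near-identical copies in the rat genome, and for several the counts lay at the copy. Of the 76 core genes listed, Rps13 and Rps26 are not analysed here. Another 11 had a symbol with a mean under 100 counts, among them Rps19 (12.5), Rpl38 (1), Rplp2 (0.333) and Rpl10a (0). At Rps18, 94.5% of the counts of gene and copy lay at Rps18l1, at Rps21 95.2% at Rps21-ps1, at Rpl31 86.1% at Rpl31l4 and at Rpl6 76.1% at Rpl6-ps1. How reads with several matches were counted is not given in the sources used here. Counts of such symbols, and of the core symbols with few or no counts, are therefore uncertain. The 4 copy-named members were all lower, against 32.8% of all genes tested. None of the 4 pseudogene-named members passed, against 65.9% of all genes tested. The copy-named Rps18l1 and Rpl5l1 were lower by little (log2 fold changes -0.11 and -0.15, adjusted p = 0.0309 and 0.0378), and either call was lost without any of several libraries. Of the pseudogene-named members, Rpl6-ps1 had a log2 fold change of -0.10 (adjusted p = 0.0938), Rpl26-ps2 -0.07 (adjusted p = 0.271) and Rpl34-ps1 -0.05 (adjusted p = 0.478).

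Adding the counts of each copy to the gene it is named after, an alternative chosen after the data were seen, changed the direction or the call at 5 of 8 genes (Rps10, Rps21, Rpl26, Rpl31 and Rps18). Rps10 rose on its own, while Rps10l1 was at 221, 191 and 188 CPM against 141, 143 and 125 CPM and fell (log2 fold change -0.55, SE 0.0653, adjusted p = 2.41e-06). Their sum was 318, 286 and 287 CPM against 254, 263 and 236 CPM, so that the summed Rps10 fell without overlap (log2 fold change -0.24, adjusted p = 8.165e-04). The copy held 67.3% of the summed CPM in the Vector group and 54.3% in the libraries labelled FTO.

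Rps21, the member with the lowest count, was at 9.58, 9.13 and 8.59 CPM against 6.87, 7.70 and 5.92 CPM and was lower on its own (log2 fold change -0.42, SE 0.132, adjusted p = 0.0108, or 0.0518 without FTO replicate 3). Rps21-ps1, with many times its counts, was at 119, 171 and 171 CPM against 156, 161 and 155 CPM, with Vector replicate 1 apart from the other libraries (log2 fold change 0.03, adjusted p = 0.769). The sum of both did not pass (log2 fold change 0.01, adjusted p = 0.907). For Rpl26 and Rpl26-ps2 the sum did not pass either (log2 fold change 0.01, adjusted p = 0.852).

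At Rpl31 the gene alone had a log2 fold change of 0.15 (adjusted p = 0.155), while Rpl31l4 was at 321, 334 and 333 CPM against 271, 269 and 249.9 CPM and fell without overlap (log2 fold change -0.33, SE 0.0436, adjusted p = 9.274e-06). Their sum fell (log2 fold change -0.26, adjusted p = 8.569e-05). Rps18 alone did not pass (log2 fold change 0.07, adjusted p = 0.411), and its sum with Rps18l1 was lower (-0.10, adjusted p = 0.0477). Rpl5 was lower alone and with Rpl5l1 (log2 fold change of the sum -0.31, adjusted p = 8.843e-06). The sums at Rpl6 (-0.08, adjusted p = 0.173) and at Rpl34 (0.02, adjusted p = 0.762) did not pass. After the merging, 42 of 70 members passed, 12 higher and 30 lower. Of all genes tested, 65.9% passed before it.

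**Figure D4:**
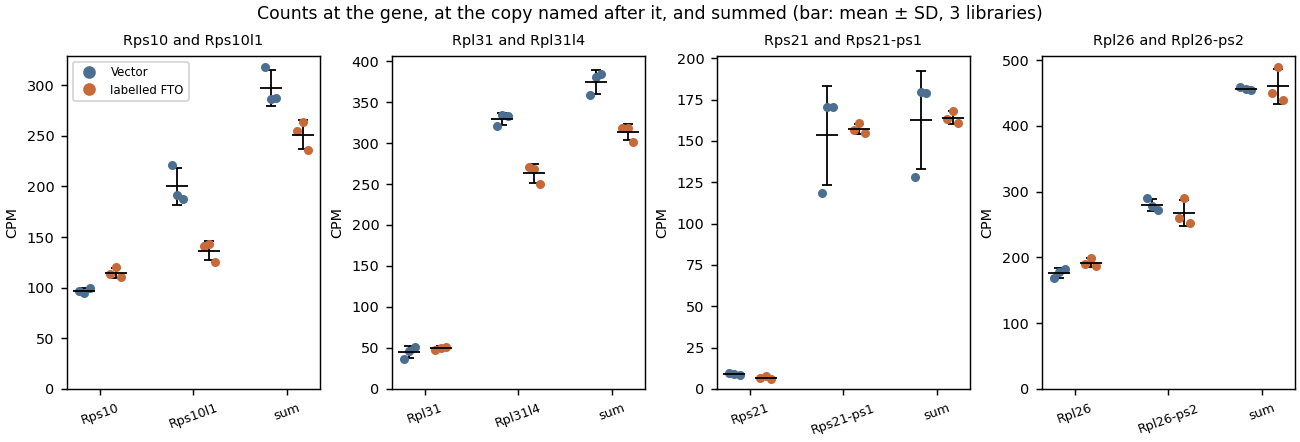
CPM (y axes, starting at 0) of 4 genes, of the copy symbol named after each and of their sum, in each library, with the mean ± SD of 3 libraries. Rps10 rises while Rps10l1 and the sum fall, Rpl31l4 and the sum at Rpl31 fall, and the sums at Rps21 (162 against 164 CPM) and Rpl26 (457 against 460.1 CPM) did not pass the test.

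Paralogues, unlike core genes, were mostly higher. Of the 6 that were members, 5 were higher and none was lower, against 33.2% and 32.8% of all genes tested. Their median log2 fold change was 0.38. Rpl7l1, a relative of Rpl7 that works in ribosome assembly, was at 69.9, 65.4 and 65.1 CPM against 91.3, 96.5 and 96.2 CPM without overlap (fold 1.42, 95% interval 1.31 to 1.53, log2 fold change 0.50, SE 0.0525, adjusted p = 6.209e-07). Rpl22l1, which can take the place of Rpl22, was at 98.4, 112 and 107 CPM against 139, 142 and 134 CPM without overlap (log2 fold change 0.38, SE 0.0526, adjusted p = 1.161e-05). Rpl10l, known from the testis, was at 14.998, 12.6 and 14.8 CPM against 17.8, 19.3 and 17.8 CPM without overlap (log2 fold change 0.37, SE 0.0965, adjusted p = 0.00351).

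The other paralogues were less even. Rps4y2 was at 26.9, 22.01 and 24.8 CPM against 34.7, 37.7 and 26.6 CPM, and FTO replicate 3 lay within the Vector range (log2 fold change 0.42, SE 0.114, adjusted p = 0.00481). Rpl36al was at 69.3, 72.6 and 65.9 CPM against 80.3, 83.1 and 73.0 CPM (log2 fold change 0.18, SE 0.0606, adjusted p = 0.0151), a call that was lost without Vector replicate 3 or FTO replicate 1. Rps27l, a p53 target, was at 118, 131 and 131 CPM against 123, 139 and 120.3 CPM with overlap (log2 fold change 0.01, adjusted p = 0.895). Rps19bp1, the binding protein, did not pass either (log2 fold change 0.03, adjusted p = 0.752).

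Against its parent gene in the same library, each of these paralogues but Rps27l took a larger share in the libraries labelled FTO. How reads matching both paralogue and parent were counted is not given in the sources used here, so these shares are uncertain. The parent Rpl36a had a mean of 83.2 counts, and Rpl36al had 1089. The log2 ratio of Rpl22l1 to Rpl22 was 0.49, 0.71 and 0.63 in the Vector libraries and 1.2, 1.11 and 1.21 in those labelled FTO, a difference of 0.56. The differences were 0.87 for Rpl10l to Rpl10, 0.69 for Rpl7l1 to Rpl7, 0.69 for Rps4y2 to Rps4x and 0.17 for Rpl36al to Rpl36a. Rpl39l, a paralogue under the mean of 100 counts, went the other way against Rpl39 with a difference of -0.43, or -0.23 without FTO replicate 3. In these 6 pairs the groups did not overlap, and for Rps27l to Rps27 the difference was -0.07 with overlap. Over the 7 pairs the two-sided exact permutation test gave p = 0.1 for the first 6, the smallest value that 3 against 3 libraries allow, and p = 0.4 for Rps27l (adjusted 0.117 and 0.4), so none could reach 0.05. Of the parents, Rpl22 was at 69.2 ± 0.798 CPM against 61.4 ± 3.85 CPM (log2 fold change -0.18, adjusted p = 0.0138) and Rpl7 at 777 ± 7.25 CPM against 682 ± 33.2 CPM (-0.19, adjusted p = 0.00105). Rps27 (0.08, adjusted p = 0.146) and Rpl36a (0.01, adjusted p = 0.954, under the mean of 100 counts) did not pass.

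**Figure D5:**
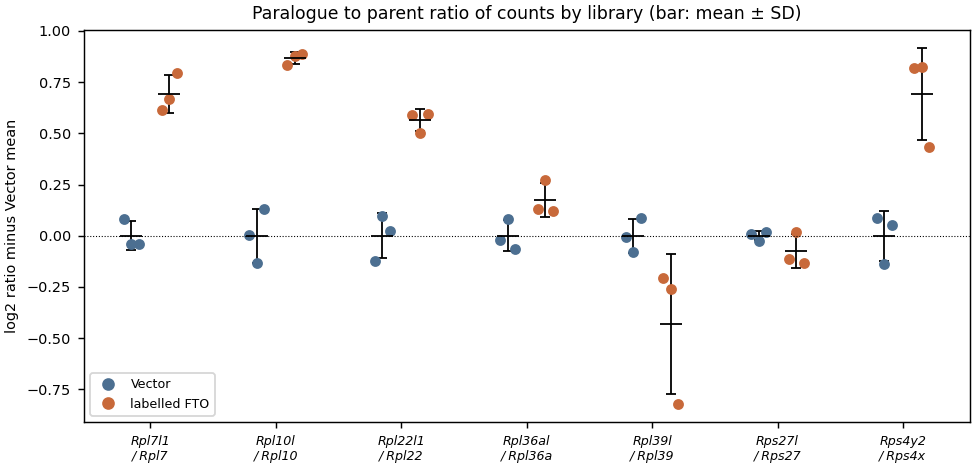
Log2 ratio of paralogue to parent gene in each library, less the mean of the Vector libraries (y axis, log2 units), for 7 pairs, with the mean ± SD of 3 libraries. The libraries labelled FTO lie above all Vector libraries for 5 pairs, below them for Rpl39l to Rpl39, and among them for Rps27l to Rps27.

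Ribosomal proteins whose symbols lie outside the pattern were on the same scale. Rpsa, a small subunit protein also known as a laminin receptor, was at 1586, 1548 and 1496 CPM against 1255, 1329.8 and 1187 CPM without overlap (log2 fold change -0.30, SE 0.0451, adjusted p = 3.544e-05). Rack1, a scaffold protein on the small subunit, was at 1089, 1055 and 1038 CPM against 821, 864 and 787 CPM without overlap (log2 fold change -0.36, SE 0.0427, adjusted p = 2.181e-06). Fau had at most 1 count in any library and was not tested.

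Genes that build ribosomes were more often higher than lower, on lists made with earlier results of these data known. Of 17 tested genes of RNA polymerase I transcription, which makes the ribosomal RNA precursor, 6 were higher (35.3%) and 3 lower (17.6%), against 33.2% and 32.8% of all genes tested. The subunit Polr1e rose by 1.45 on the log2 scale (adjusted p = 7.67e-11) and Taf1a, of the promoter-binding factor SL1, fell by 0.62 (adjusted p = 0.0019). Of 50 nucleolar processing factors, 20 were higher (40%) and 5 lower (10%), with a median log2 fold change of 0.12. Rcl1, which acts in the processing of small subunit RNA, was at 22.3, 20.2 and 20.7 CPM against 146, 153 and 142 CPM, far apart (log2 fold change 2.80, SE 0.0603, adjusted p = 3.012e-15). Wdr75, of the complex that starts this processing, fell from 86.6 ± 1.48 to 43.1 ± 1.4 CPM (log2 fold change -1.01, adjusted p = 1.949e-10).

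Of 48 factors for assembly and export of the large subunit, 28 were higher (58.3%) and 4 lower (8.33%), with a median of 0.18. Of all genes tested, 33.2% were higher and 32.8% lower. Eif6, which keeps the new large subunit from joining too early, was at 60.2, 58.6 and 59.5 CPM against 107, 111 and 98.3 CPM without overlap (log2 fold change 0.83, SE 0.0559, adjusted p = 3.717e-09), and Rrp1b was lower (-0.47, adjusted p = 5.299e-05). Of 25 small subunit assembly factors and ribosomal protein chaperones, 13 were higher (52%) and 2 lower (8%), against the same 33.2% and 32.8%. Their median was 0.19. The largest increase there, of Tsr2 (1.48, adjusted p = 0.0193), rested on a mean of 12.7 counts, was 2.52 without Vector replicate 3, and was lost as a call without Vector replicate 1, Vector replicate 2 or FTO replicate 3. Naca, of the complex that meets new proteins at the exit tunnel, was lower (-0.12, adjusted p = 0.0239), a call that was lost without Vector replicate 2, Vector replicate 3 or FTO replicate 1.

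A list of genes taken to have TOP mRNAs held mostly translation factors, with Tpt1, Hnrnpa1 and Vim beside them. It was closer to the ribosomal protein genes, with 4 of 17 higher (23.5%), 7 lower (41.2%) and a median of -0.03. Of all genes tested, 33.2% were higher and 32.8% lower, the background for the regulators below too. The elongation factors Eef2 and Eef1a1 fell by 0.31 each on the log2 scale (adjusted p = 1.577e-06 and 5.801e-06), while Tpt1 (0.20, adjusted p = 4.867e-04) and the poly(A)-binding protein Pabpc1 (0.12, adjusted p = 0.0109) were higher. At the ends of the list stood Hnrnpa1, an RNA-binding protein (0.36, adjusted p = 2.104e-06), and Vim, the intermediate filament vimentin (-1.34, adjusted p = 9.559e-13). Of 29 regulators of ribosome synthesis around mTORC1, LARP1 and MYC, 11 were higher (37.9%) and 6 lower (20.7%). Mxd1, which competes with MYC for its partner MAX, rose by 1.5 on the log2 scale (adjusted p = 1.47e-10), and Deptor, an inhibitor of mTOR, fell by 1.65 (adjusted p = 7.472e-07). Larp1 itself had a log2 fold change of -0.03 (adjusted p = 0.63), Myc of 0.30 (adjusted p = 1.738e-04), Mtor of 0.23 (adjusted p = 0.00232) and Eif4ebp1, a translation repressor that mTORC1 inactivates, of -0.79 (adjusted p = 9.653e-09).

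The mRNAs of mitochondrial ribosomal proteins, which come from other genes of the nucleus, were mostly higher. Of 71 tested genes 40 were higher (56.3%) and 3 lower (4.23%), against 33.2% and 32.8% of all genes tested. Their median log2 fold change was 0.20, where that of all genes tested was 0.00. Mrpl49 had the largest increase (1.32, adjusted p = 4.889e-05) and Mrpl51 the largest decrease (-0.33, adjusted p = 0.00133). No test was run of the difference between these lists and the cytosolic ribosomal protein genes.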

How the data were processed

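Total RNA was extracted with Trizol and libraries were made with the NEBNext Ultra RNA kit. The submitters' processing notes name Trimmomatic and the rat build rn6, while the aligner, the counting program, the annotation, the use of strand and the treatment of reads with several matches are not given in the sources used here. What the authors deposited were read counts that had not been normalized, in 1 file per library, with a whole number for each gene symbol. Totals were 13178952 to 17857999 counts per library, and intervals cover replicate spread and counting error only, since the libraries carry no molecular identifiers. Replicate pairs within groups differed by more than sampling noise (chi-square per degree of freedom 1.57 to 8.38 over genes with a mean of at least 10 counts).

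Groups were taken from the genotype labels. Genes were filtered with filterByExpr (minimum count 10), which left 12941, scaled with TMM factors (trimmed mean of M-values), and compared by the two-sided quasi-likelihood test of edgeR 4.0.16 in R 4.3.3 with no covariate. Adjusted p-values are those of Benjamini and Hochberg over the whole set of genes tested. CPM are TMM-scaled, errors are SD over 3 libraries, and the SE of a log2 fold change was derived from the F statistic. The study names a threshold for RNA-seq, a log2 fold change of at least 1 and a p-value under 0.05, but no test. Paralogue ratios were taken from counts plus 0.5 and compared by the exact permutation test over libraries. The script was tested on simulated counts.

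The members and the gene lists were chosen with earlier results of these data known, so lists are described by counts and medians and no list was tested. No gene lengths were used, so CPM are not compared between genes as levels. Named were Fto, Rplp0, Rplp1, Rplp2, Rps6, Rps3, Rpl3, Rpl5, Rpl11 and Rps27a, the 5 core genes of each subunit that increased most and the 5 that decreased most among those passing without overlap, paralogues and their parents, members that are not core genes, 4 ribosomal proteins outside the pattern, 2 symbols on either side of the count limit, the extremes of each list, and the 5 members with the highest CPM that did not pass. Some genes under this rule are not reported here, and counts include them. The genes receiving counts from copies, core symbols under the limit, Rpl39l, Eef2, Eef1a1, Tpt1, Pabpc1, Larp1, Myc, Mtor, Eif4ebp1, and the markers C1qb and Emcn were named after their values were seen. Of the members, 75 matched a RefSeq symbol and 5 of these are pseudogenes there. Motifs were searched in RefSeq promoters of assembly GRCr8, on which no count was made.

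Alternatives were DESeq2 1.42.0 and limma-voom (limma 3.58.1), DESeq2 size factors, library size alone or TMM from genes that are not members, no filter or a mean of at least 10 counts, a replicate block, glmTreat against 1.2-fold, a member limit of 50 or 200 counts, leaving out each library and, added after the data were seen, copies summed into their genes.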

Additional observations from a re-analysis of the deposited data

How the results depend on the processing

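With the main settings 46 members and 8531 of all genes passed. Leaving out each library in turn, from 37 members (without Vector replicate 1 or FTO replicate 1) to 49 (without FTO replicate 2) passed. From 10 to 15 were higher and from 26 to 37 lower. Of all genes, from 7902 (without Vector replicate 3) to 8719 (without FTO replicate 3) passed, from 3957 to 4337 higher and from 3921 to 4382 lower. The median log2 fold change of the paralogues ran from 0.31 to 0.40. The other settings gave 40 (DESeq2) to 49 (no filter) passing members, with more lower than higher in each. Against a 1.2-fold change 9 members (3 higher, 6 lower) and 5668 genes (2830 higher) passed. On the lists, 3 of 17 genes of RNA polymerase I, 12 of 50 nucleolar factors, 15 of 48 factors of large and 7 of 25 of small subunit assembly passed. So did 2 of 17 genes of the list with TOP mRNAs, 10 of 29 regulators, 20 of 71 mitochondrial ribosomal proteins and 1 of 3 ribosomal proteins outside the pattern. Of all genes tested 43.8% passed, a larger share than on any of these lists. Adding copies to their genes turned the log2 fold changes of Rps21 to 0.013, Rps10 to -0.24, Rpl31 from 0.15 to -0.26 and Rps18 from 0.07 to -0.10, with calls gained at Rpl31 and Rps18 (adjusted p = 8.569e-05 and 0.0477) and lost at Rps21 and Rpl26 (0.907 and 0.852), which follows from the added counts. Among genes that did not pass, the sign of the log2 fold change turned when 1 library was left out for Rplp1 (-0.063 to 0.014), Rpl11 (-0.040 to 0.025), Rps27l (-0.054 to 0.048), Rpl36a (-0.033 to 0.036), Rps19bp1 (-0.020 to 0.067), Rpl4 (-0.037 to 0.015) and Rps21-ps1 (-0.12 to 0.12, with an adjusted p of 0.0494 without Vector replicate 1). Over 75 named genes, Rpl31 and Rps18 not among them, and 15 settings, 29 calls were lost, 6 were gained and 12 signs turned, in 22 genes. The cause of these changes was not tested.

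No pairing by replicate number showed in the counts. The deviations of same-numbered libraries from their group means correlated at 0.00352, -0.0789 and 0.0346 across genes, and not every library correlated best with its own number. With 3 libraries per group, these correlations cannot show whether same-numbered libraries shared a culture or a preparation. With the replicate block 45 members passed, 14 higher and 31 lower, and of all genes 8399. At these depths, symbols with a mean near 100 counts carried an SE above 0.1 on the log2 scale, as for Rps21 (0.132) and Rps20 (0.128), so changes of the size seen in most members were not detectable there.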
